A study of Mus musculus with 9 samples.

Results

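The 10 genes described here are H2-K1, H2-D1, B2m, Tap1, Tap2, Tapbp, Psmb8, Psmb9, Nlrc5 and Cd274, which act in the presentation of peptides on MHC class I molecules or, for Cd274, in the answer of T cells to them. They were taken by symbol from the 22972 gene names of the deposited tables, and all 10 were found. RNA sequencing was performed on B16 cells, a mouse melanoma line labelled as wild type, grown on a flexible PDMS film in medium with serum. A total of 9 libraries were analyzed, 3 in each of 3 groups, all labelled day 3. The control group (CTL) was cultured without treatment, and the MS group was strained cyclically by tension of the film for 72 h. The blebbistatin group was given 100 ng/mL of blebbistatin, an inhibitor of non-muscle myosin II, for 72 h. Its labels name the inhibitor alone, whereas the study describes inhibitor treatment followed by straining, so that it may have been strained as well. The replicates are labelled as parallel experiments with no word on separate cultures, and all come from 1 cell line. The p-values below therefore measure only the spread between these libraries, which may be technical.

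Nucleated cells display fragments of their own proteins on class I molecules, each made of a polymorphic heavy chain and the invariant light chain β2-microglobulin. The fragments are cut by the proteasome, carried into the endoplasmic reticulum by the TAP transporter and loaded there with the help of tapasin, after which the complex travels to the surface and is read by CD8+ T cells. Interferons raise most genes of this pathway through IRF factors and the class I transactivator NLRC5, and B16 cells are known as a line with low surface class I in culture.

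Of the 10 genes, 7 lie on chromosome 17, in or near the H-2 complex. In GENCODE M21 on GRCm38, H2-K1 spans chr17:33996017-34000347 on the minus strand and H2-D1 chr17:35262730-35267499 on the plus strand. Tap1 (chr17:34187553-34197225, plus), Psmb9 (chr17:34181987-34187764, minus), Psmb8 (chr17:34197721-34201454, plus) and Tap2 (chr17:34203527-34216321, plus) are neighbours, and Tapbp is at chr17:33915899-33929292 on the plus strand. B2m is at chr2:122147686-122153083, Nlrc5 at chr8:94434356-94527272 and Cd274 at chr19:29367455-29388095, all on the plus strand. Exons of Tap1 and Psmb9 overlap by 212 bases on opposite strands, and whether counting used the strand was not stated, so reads from the overlap cannot be assigned to one of them. Exons of other members also overlap genes on the opposite strand, by up to 533 bases in Tap2, 511 in Cd274, 498 in Psmb8 and 78 in Nlrc5. Of the 50-base stretches of the longest transcript, 8.1% in H2-K1 and 14.3% in H2-D1 also occur in other genes, with the largest shares in other heavy chain genes, against 0% in B2m. Levels of the heavy chains are uncertain by the share of reads that could be placed in either copy.

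The RefSeq promoter table (GRCm38.p6, windows from 250 bases before to 50 bases after a start) held 8 of the 10 genes, without Tap2 and Nlrc5. The 250 bases before the start are printed for 4 of them, the heavy chains, the light chain and a chain of the transporter. These starts are those of RefSeq and can differ from the GENCODE spans above. The windows of H2-D1, Tapbp, Psmb8 and Psmb9 lie inside the GENCODE spans of their genes. Each printed stretch reads 5′ to 3′ on the strand of the gene. Capitals mark matches on either strand to GAANNGAAA, the core of an interferon response element, GGGNNTTCC, the core of an NF-kB site, CCAAT, the Y box, and TGACG, the core of the X2 box bound by CREB and ATF factors.
H2-K1, chr17:34000348-34000597, minus strand: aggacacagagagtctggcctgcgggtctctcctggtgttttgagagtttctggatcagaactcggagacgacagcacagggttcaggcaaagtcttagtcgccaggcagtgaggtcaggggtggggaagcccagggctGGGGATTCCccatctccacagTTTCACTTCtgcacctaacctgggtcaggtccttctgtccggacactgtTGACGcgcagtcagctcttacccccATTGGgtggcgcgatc
H2-D1, chr17:35262844-35263093, plus strand: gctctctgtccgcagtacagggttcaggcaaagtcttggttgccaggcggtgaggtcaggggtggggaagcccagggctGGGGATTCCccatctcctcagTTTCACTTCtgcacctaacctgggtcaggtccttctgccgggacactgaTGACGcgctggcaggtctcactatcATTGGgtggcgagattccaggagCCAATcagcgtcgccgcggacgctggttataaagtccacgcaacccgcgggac
B2m, chr2:122147437-122147686, plus strand: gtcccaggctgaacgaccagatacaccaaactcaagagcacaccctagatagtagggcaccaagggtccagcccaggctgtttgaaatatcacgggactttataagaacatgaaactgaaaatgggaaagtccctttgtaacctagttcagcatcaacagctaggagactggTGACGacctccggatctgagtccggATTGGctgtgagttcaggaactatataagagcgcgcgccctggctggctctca
Tap1, chr17:34187306-34187555, plus strand: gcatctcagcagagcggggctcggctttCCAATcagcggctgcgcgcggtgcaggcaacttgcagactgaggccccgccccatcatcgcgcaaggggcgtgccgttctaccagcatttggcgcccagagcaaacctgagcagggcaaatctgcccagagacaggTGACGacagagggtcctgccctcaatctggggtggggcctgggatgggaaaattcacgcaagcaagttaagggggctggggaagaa

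Both heavy chain promoters held GGGGATTCC followed by TTTCACTTC, at positions -111 and -90 from the start in H2-K1 and at -171 and -150 in H2-D1. From another listed start of H2-K1 they lay at -125 and -104, so these positions depend on the start that was annotated. The windows of H2-K1 and H2-D1 were identical at 73.3% of 240 aligned bases. Among the 8 windows, GAANNGAAA was found in 2, against 7.52% of all 32851 windows of this length in the table. GGGNNTTCC was found in the same 2, against 5.82% of all windows. CCAAT was present in 6 of 8, against 37.4% of all windows, and TGACG in 5 of 8, against 20.8%. B2m and Tap1 each held CCAAT and TGACG and no match to the longer motifs as written. The B2m window does hold gaaactgaaa, which differs from GAANNGAAA by a further A before the free bases. Such forms were not searched, so the counts hold for the exact patterns only. TTCNNNGAA, the core of a gamma activated site, was found in Psmb8 alone of the 8, against 8.3% of all windows. The windows of Tap1 and Psmb9, which are read in opposite directions, share 275 bases, so their letters are not independent. Such matches describe the letters only.

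All values below are FPKM, fragment counts corrected for gene length and for the size of the library, a unit that allows levels of different genes to be compared. The mean over the 9 libraries was 298.6 FPKM for B2m, 28.9 for H2-D1, 23.85 for Tapbp, 6.60 for H2-K1, 2.555 for Tap1, 1.38 for Cd274, 1.04 for Tap2, 0.238 for Psmb9, 0.103 for Nlrc5 and 0.0318 for Psmb8. Between neighbours in this order, the ranges over the 9 libraries did not overlap for B2m above H2-D1 and for Tapbp above H2-K1. The ranges of the other neighbours overlapped, and Cd274 was above Tap2 in 6 of 9 libraries. The light chain was thus far above the heavy chains in every library, with a ratio of B2m to H2-D1 between 8.27 and 14.3. H2-D1 was between 3.54 and 6.78 times the level of H2-K1 (median 4.12).

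**Figure D1:**
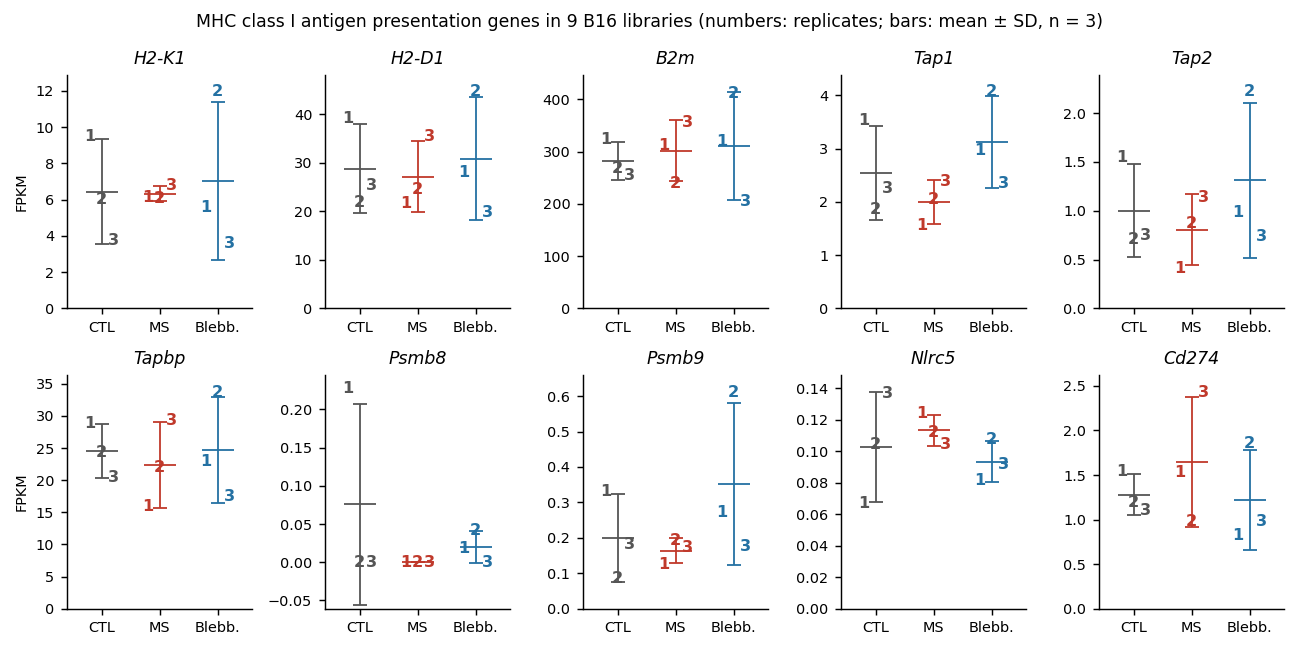
FPKM of each of the 10 genes (vertical axis, 1 panel a gene, each with its own scale) in CTL, MS and blebbistatin libraries. Numbers are replicates and bars give mean ± SD (n = 3). The 3 groups overlap in every panel, and CTL 1, MS 3 and blebbistatin 2 are the 3 highest libraries for 6 of the 10 genes.

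H2-K1 and H2-D1 encode the classical heavy chains K and D. H2-K1 was at 9.51, 6.03 and 3.75 FPKM in CTL 1 to 3, at 6.14, 6.05 and 6.80 FPKM in MS 1 to 3, and at 5.59, 11.95 and 3.56 FPKM in blebbistatin 1 to 3. The MS libraries lay close together, inside the range of both other groups. Group means of H2-K1 were 6.43 ± 2.90 (SD, n = 3) for CTL, 6.33 ± 0.413 for MS and 7.03 ± 4.38 FPKM for blebbistatin. H2-D1 was at 39.2, 21.8 and 25.45 FPKM in CTL, at 21.7, 24.45 and 35.4 FPKM in MS, and at 28.1, 44.7 and 19.8 FPKM in the blebbistatin group. Each group held 1 library well above its other 2 for this gene. The means were 28.8 ± 9.18 (SD, n = 3), 27.2 ± 7.25 and 30.9 ± 12.65 FPKM in the same order.

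B2m, the light chain shared by all class I molecules, was at 324.1, 268.6 and 254.9 FPKM in CTL, at 311.6, 239.7 and 354.9 FPKM in MS, and at 319.1, 410.3 and 204.6 FPKM in the blebbistatin group. The blebbistatin group contained both the highest and the lowest of the 9 libraries. CTL had a mean of 282.5 ± 36.7 (SD, n = 3), MS of 302.1 ± 58.2 and the blebbistatin group of 311.3 ± 103 FPKM.

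Differences were tested on log2(FPKM + 1), which understates the change of low genes, in 1 limma fit over the 10109 genes whose mean reached 1 FPKM, with Benjamini-Hochberg adjustment over all of them. The heavy and light chains were close to equal in MS and CTL. MS minus CTL on the log2 scale was 0.05 for H2-K1 with a standard error of 0.39, -0.07 for H2-D1 with a standard error of 0.32, and 0.09 for B2m with a standard error of 0.25 (limma, adjusted p = 1 for each). In the blebbistatin group against MS the log2 fold changes were -0.0043 for H2-K1, 0.13 for H2-D1 and 0.0051 for B2m, with the same standard errors. None of these differences exceeded the spread between replicates. The 95% interval for H2-K1 in MS against CTL ran from -0.82 to 0.93, so changes within that range in either direction were not excluded. With FPKM alone the depth is unknown, and in bulk RNA a smaller number of cells with a high level cannot be told apart from less RNA in each cell.

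Tap1 and Tap2 encode the chains of the peptide transporter. Tap1 was at 3.535, 1.85 and 2.25 FPKM in CTL, at 1.56, 2.05 and 2.375 FPKM in MS, and at 2.96, 4.065 and 2.35 FPKM in the blebbistatin group. The lowest blebbistatin library stood just below the highest MS library, and the other 2 were above all of MS. Tap1 averaged 2.55 ± 0.879 (SD, n = 3) for CTL, 2.00 ± 0.408 for MS and 3.12 ± 0.870 FPKM for blebbistatin. The log2 fold change of Tap1 in the blebbistatin group against MS was 0.45 with a standard error of 0.23 and a 95% interval from -0.07 to 0.97. It had the lowest p of the 7 tested genes in any comparison, at an unadjusted p of 0.0828, and did not pass after adjustment (limma, adjusted p = 0.897). For MS against CTL the difference of Tap1 was -0.22, and for blebbistatin against CTL it was 0.23, with the same standard error (limma, adjusted p = 1 for both).

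Tap2 was at 1.55, 0.709 and 0.747 FPKM in CTL, at 0.413, 0.872 and 1.13 FPKM in MS, and at 0.984, 2.22 and 0.738 FPKM in the blebbistatin group. The groups overlapped, with the highest library in the blebbistatin group and the lowest in MS. On the log2 scale Tap2 differed by -0.14 between MS and CTL and by 0.33 in the blebbistatin group against MS, with a standard error of 0.28 (limma, adjusted p = 1 and 0.897). Tap1 exceeded Tap2 in every library, by 1.83 to 3.79 times.

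Tapbp encodes tapasin, which holds the empty heavy chain next to the transporter. Its values were 28.8, 24.3 and 20.4 FPKM in CTL, 15.9, 21.99 and 29.3 FPKM in MS, and 22.9, 33.7 and 17.4 FPKM in the blebbistatin group. Tapbp was close to H2-D1 in level, at 0.733 to 1.11 times its FPKM, and the 3 groups overlapped. On the log2 scale Tapbp differed by -0.15 between MS and CTL and by 0.13 in the blebbistatin group against MS, with a standard error of 0.27 (limma, adjusted p = 1 and 0.933). Tapbp shares up to 904 exonic bases with other annotated genes, among them Zbtb22 on the same strand.

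**Figure D2:**
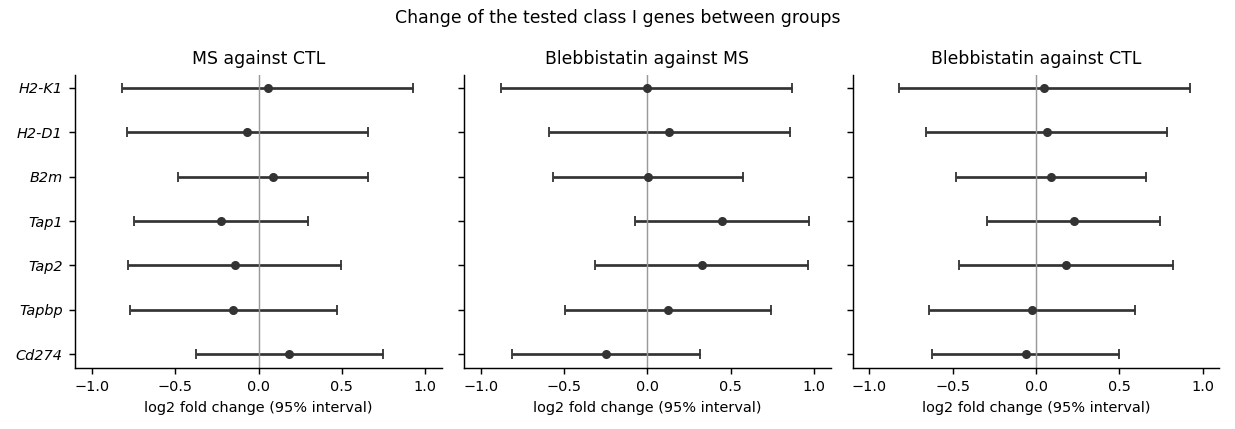
Log2 fold change (horizontal axis, on log2(FPKM + 1)) of the 7 tested class I genes in each of the 3 comparisons, with points for the limma estimate and bars for the 95% interval. All 21 intervals include 0, and that of Tap1 in the blebbistatin group against MS, from -0.07 to 0.97, has the end nearest to 0.

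Psmb8 and Psmb9 encode the inducible β5i and β1i catalytic subunits, which replace Psmb5 and Psmb6 in the immunoproteasome of interferon-treated and immune cells. Psmb8 was at 0.227 FPKM in CTL 1, at 0.0174 and 0.04145 FPKM in blebbistatin 1 and 2, and was listed at 0 in the other 6 libraries. Psmb9 was at 0.330, 0.08494 and 0.181 FPKM in CTL, at 0.125, 0.193 and 0.173 FPKM in MS, and at 0.270, 0.611 and 0.176 FPKM in the blebbistatin group. Psmb9 was thus seen in every library, at under 1 FPKM in each. The constitutive counterparts were abundant, with Psmb5 between 205.5 and 252.3 FPKM and Psmb6 between 144.5 and 216.5 FPKM, so that Psmb6 was 294 to 2330 times the level of Psmb9. The third inducible subunit, Psmb10, was at 7.47 to 11.2 FPKM, against 130.6 to 214.9 FPKM for Psmb7. Psmb10 was the only inducible subunit above 1 FPKM, and it was so in all 9 libraries.

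**Figure D3:**
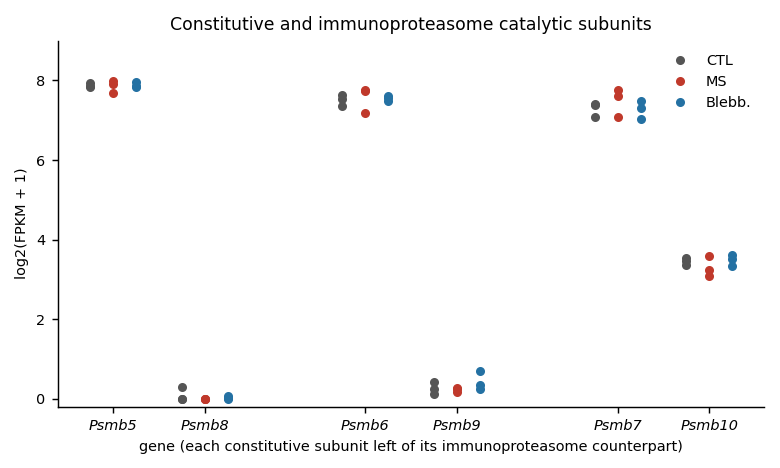
Log2(FPKM + 1) (vertical axis) of the 3 constitutive catalytic subunits of the proteasome and their inducible counterparts, 1 point a library, coloured by group. Psmb5, Psmb6 and Psmb7 lie between 130.6 and 252.3 FPKM in every library, Psmb10 between 7.47 and 11.2 FPKM, and Psmb8 and Psmb9 below 1 FPKM.

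Nlrc5, the transactivator of class I genes, was at 0.0672, 0.1045 and 0.137 FPKM in CTL, at 0.124, 0.112 and 0.104 FPKM in MS, and at 0.08125, 0.108 and 0.0917 FPKM in the blebbistatin group. Its libraries were closer together than those of the other low genes, and CTL 1 was its lowest library. Psmb8, Psmb9 and Nlrc5 had means under 1 FPKM and were compared by an exact two-sided permutation test on FPKM, in which 3 libraries against 3 allow no p under 0.1. The p of this exact test for MS against CTL was 1 for Psmb8, 0.8 for Psmb9 and 0.8 for Nlrc5. For the blebbistatin group against MS the exact p was 0.4, 0.2 and 0.2 in the same order, and Psmb9 had means of 0.352 and 0.164 FPKM. That difference of 0.189 FPKM fell to 0.0594 FPKM without blebbistatin 2. For the blebbistatin group against CTL the exact p was 1, 0.5 and 0.8. The values of these 3 genes are small enough that few fragments may stand behind them, and no counts were available to say how many.

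Cd274 encodes PD-L1, the ligand by which tumor cells restrain PD-1 bearing T cells. It was at 1.54, 1.19 and 1.103 FPKM in CTL, at 1.53, 0.981 and 2.43 FPKM in MS, and at 0.818, 1.86 and 0.979 FPKM in the blebbistatin group. MS 3 was the highest of the 9 libraries, and the other MS libraries lay within the range of CTL or below it. Cd274 averaged 1.28 ± 0.229 (SD, n = 3) for CTL, 1.65 ± 0.731 for MS and 1.22 ± 0.559 FPKM for blebbistatin. On the log2 scale Cd274 differed by 0.18 between MS and CTL (95% interval from -0.38 to 0.75) and by -0.25 in the blebbistatin group against MS, with a standard error of 0.25 (limma, adjusted p = 1 and 0.897).

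Of the 7 tested genes, 0 passed an adjusted p of 0.05 in MS against CTL, where 0% of all 10109 genes passed (limma). The same counts, 0 of 7 and 0%, were obtained for the blebbistatin group against MS and for the blebbistatin group against CTL. Without adjustment, 0 of the 7 reached p under 0.05 in each comparison, against 0.158% of all genes in MS against CTL, 1.25% in the blebbistatin group against MS and 0.0890% in the blebbistatin group against CTL. In each comparison the groups overlapped for all 7 tested genes, so that 0 of 7 were separate, and also for the 3 low genes. Over all genes tested this happened for 3.17% in MS against CTL, 3.73% in the blebbistatin group against MS and 2.08% in the blebbistatin group against CTL. With 7 genes these shares give little to compare. The median log2 fold change of the 7 genes was -0.07 in MS against CTL, 0.13 in the blebbistatin group against MS and 0.06 in the blebbistatin group against CTL, beside medians of -0.0018, -0.0059 and -0.013 over all genes tested. The comparisons share libraries, so their values are not independent.

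A wider list of the pathway held 72 further genes in the files, of which 50 were tested. The number called was 0 higher and 0 lower in each comparison (limma, smallest adjusted p = 0.897). Without adjustment, p was under 0.05 for 0 of 50 genes in MS against CTL, 1 in the blebbistatin group against MS (Cd276) and 0 in the blebbistatin group against CTL. The groups did not overlap for 1 of 50 genes in MS against CTL (Cmtm4), 4 of 50 in the blebbistatin group against MS (Pvr, Cd276, Rfxap and Psme3) and 2 of 50 in the blebbistatin group against CTL (Pvr and Cd276). These shares stand beside the 3.17%, 3.73% and 2.08% of all genes given above.

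Over the 50 genes, differences between MS and CTL ran from -0.26 for Nectin2, an adhesion ligand of T and NK cell receptors, to 0.34 for Mr1, which presents vitamin B metabolites. By subgroup, blebbistatin against MS gave the following extremes on the log2 scale, none of which passed the test. The 3 tested non-classical heavy chain genes lay between -0.72 for Mr1 and 0.21 for H2-T22, a ligand of some γδ T cells. The 8 genes of the loading complex and peptide trimming lay between -0.42 for the chaperone Canx and 0.27 for the signal peptide peptidase gene H13, and the 8 of the proteasome between -0.34 for the assembly factor Pomp and 0.21 for the activator Psme3. Among 13 transcription factors of class I promoters the ends were Creb1 at -0.46 and Rfxank, a subunit of the RFX complex, at 0.21. Among the genes of interferon gamma signalling the lowest was the kinase Jak2 at -0.42, and the 6 of type I interferon signalling lay between -0.09 for the receptor chain Ifnar1 and 0.39 for Isg15, a ubiquitin-like protein. The 5 checkpoint relatives were between -0.19 for Cmtm6, which keeps PD-L1 at the surface, and 0.54 for Cd276. The standard error was 0.35 for Mr1, 0.57 for Canx, 0.34 for Jak2 and 0.38 for Isg15.

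The levels of the 7 tested genes followed the library more than the group. The share of the variance of log2(FPKM + 1) that lay between the 3 groups was 4.23% in the median gene of the 7, from 0.3% for H2-K1 to 37.8% for Tap1, beside a median of 12.7% over all genes tested. CTL 1, MS 3 and blebbistatin 2, 1 library of each group, were the 3 highest libraries for 6 of the 7. For Tap1, blebbistatin 1 was above MS 3. The same 3 libraries were the highest for 1599 of all genes tested, or 15.8%. The mean deviation of the 7 genes from their own means was 0.33, -0.15 and -0.22 on the log2 scale in CTL, -0.23, -0.16 and 0.24 in MS, and -0.03, 0.58 and -0.36 in the blebbistatin group.

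Genes of the amino acid stress response were highest in the same libraries, for all 6 of those listed. Atf4, its central transcription factor, was at 336.7, 125.5 and 132.4 FPKM in CTL, at 143.1, 128.9 and 280.5 FPKM in MS, and at 174.1, 319.2 and 140.7 FPKM in the blebbistatin group. Ddit3, the stress factor CHOP, reached 136.7, 99.1 and 131.4 FPKM in CTL 1, MS 3 and blebbistatin 2 and was at most 45.7 FPKM elsewhere. The libraries form separate clusters in Ddit3, so no correlation with the class I genes is given. The 3 libraries were also the highest for 4 of 6 genes of type I interferon signalling, 3 of 7 melanocyte markers, 1 of 3 other heavy chains, the 1 tested class II gene, 2 of 13 transcription factors, 1 of 8 of the proteasome, 0 of 8 of the loading complex and 0 of 5 checkpoint relatives. They were the 3 lowest for Calr, Canx and Sec61b of the loading complex and for Psmb6, Psmb7 and Pomp of the proteasome. The share of all genes tested for which they were the lowest was not computed. Canx was at 31.3, 69.5 and 36.4 FPKM in CTL 1, MS 3 and blebbistatin 2 and at least 71.5 FPKM elsewhere. The part of stress in the levels of the class I genes was not tested.

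**Figure D4:**
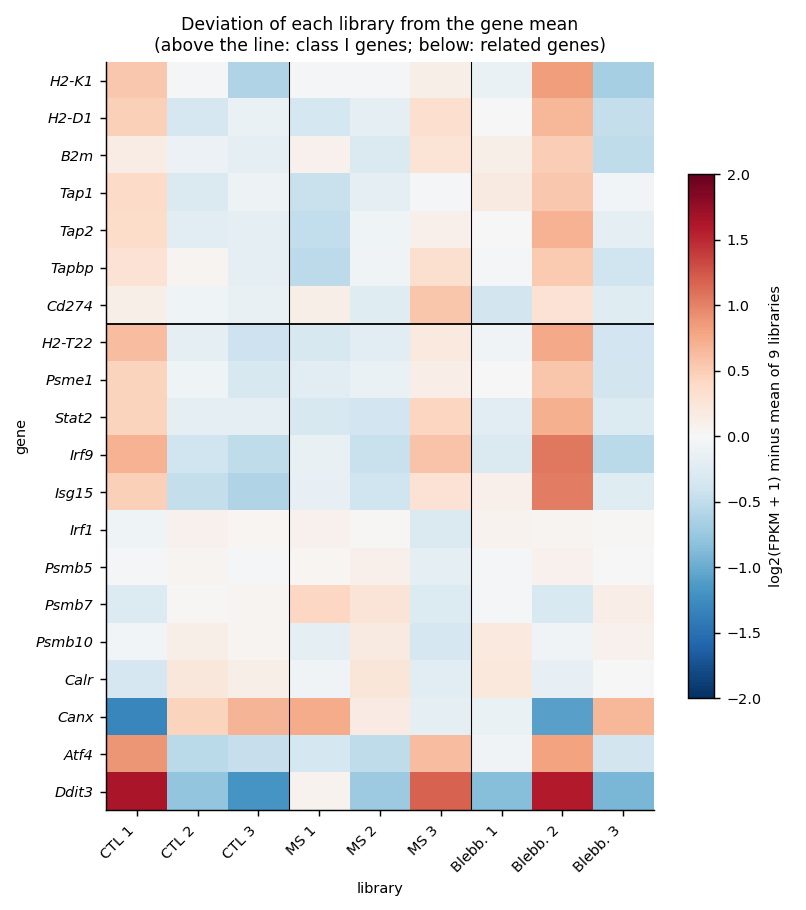
Deviation of log2(FPKM + 1) in each library (columns, by group) from the mean of the gene over 9 libraries, for the 7 tested class I genes (above the line) and 13 related genes picked after their values were seen (below it). CTL 1, MS 3 and blebbistatin 2 are red for most class I genes and for Irf9, Isg15, Atf4 and Ddit3, while Irf1 and Psmb5 vary little. Calr, Canx and Psmb7 go the other way, with these 3 libraries the lowest.

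Among themselves the 7 tested genes varied together over the 9 libraries. Pearson's r of log2(FPKM + 1) was above 0 in all 21 pairs, from 0.214 for Tap1 with Cd274 to 0.935 for Tap1 with Tap2, with a median of 0.743. Spearman's rho was between 0.25 and 0.933. By an exact permutation test adjusted over the 21 pairs, 11 passed by r and 9 by rho. The share of pairs of other genes that would pass was not computed. Of 7000 other genes, 11.2% had r above 0.9 with the mean pattern of the 7, so such values are not particular to class I genes. Tap1 with Tap2 had r = 0.935 (exact permutation p = 0.000303, adjusted 0.00318) and rho = 0.917 (exact permutation p = 0.00131, adjusted 0.0138). H2-D1 with Tap2 had r = 0.922 (exact permutation p = 0.000215, adjusted 0.00318) and rho = 0.933 (exact permutation p = 0.00075, adjusted 0.0138). In the values as deposited Cd274 stood apart, since none of its 6 pairs passed by r and 1, with H2-K1, passed by rho.

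The relation rested in part on few libraries. Without the 2 libraries farthest from the median of the first gene, r of the 21 pairs lay between -0.265 and 0.834 with a median of 0.542, and 0 pairs passed after adjustment by the exact permutation test (5 at an unadjusted p under 0.05). With the group means removed it lay between 0.599 and 0.963, with a median of 0.803. Libraries also differed in how far their FPKM tracked the GC content of a gene. Across 9663 genes, not independent of each other, r of GC content with the deviation from the gene mean ran from -0.64 in MS 1 to 0.55 in blebbistatin 1. B2m and Cd274 have a GC content of 41.2% and 44.9% in their longest transcript, against 52.5% to 57.1% in the other 8 genes. Once this trend was removed from each library, r of the 21 pairs was between 0.498 and 0.946, and the median of the 6 pairs with Cd274 was 0.88 in place of 0.578. For the 15 pairs without Cd274 the median was 0.788 in place of 0.824, so Cd274 no longer stood apart.

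**Figure D5:**
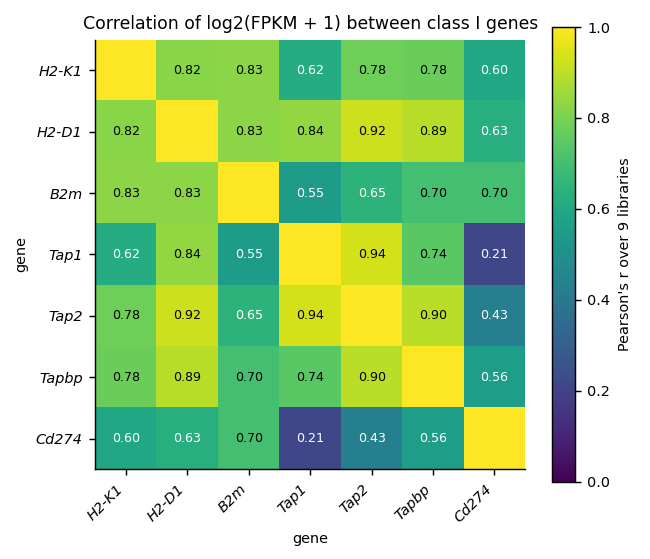
Pearson's r of log2(FPKM + 1) over the 9 libraries for each pair of the 7 tested class I genes (rows and columns), with colour and number giving r. Tap1 with Tap2 is the highest pair at 0.935, and the row of Cd274 holds the lowest values, down to 0.214.

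The genes whose pattern over the 9 libraries was most like the mean of the 7, among 7000 other genes averaging 5 FPKM or more, were Zfp467 (r = 0.996), Map1lc3b (0.995), Gpsm3 (0.993), Jmjd8 (0.99) and Adgre5 (0.99). Map1lc3b, which encodes the autophagosome protein LC3B, was at 43.8, 34.1 and 32.45 FPKM in CTL, at 32.4, 33.4 and 42.05 FPKM in MS, and at 37.5, 48.8 and 30.0 FPKM in the blebbistatin group. Such likeness was common, as 782 genes (11.2%) had r above 0.9 and 383 (5.47%) below -0.9. The points share library and base composition.

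Markers were set beside the label of the cells. The 7 melanocyte genes Mitf, Sox10, Pmel, Mlana, Tyr, Tyrp1 and Dct summed to 12900, 8300 and 8670 FPKM in CTL, to 7440, 7730 and 12000 FPKM in MS, and to 8970, 11700 and 8130 FPKM in the blebbistatin group. The melanocyte sum was thus highest in CTL 1, MS 3 and blebbistatin 2, the libraries that were highest for most class I genes. The markers did not all share this order. Pmel, Tyr and Dct, 3 of the 7, were highest in these libraries, whereas Mitf and Mlana were lowest in CTL 1 and blebbistatin 2. The part of the melanocyte genes in the levels of the class I genes was not tested. Haematopoietic markers, from cells that express class I strongly, summed to between 0.539 and 1.46 FPKM in CTL, 0.722 and 1.60 in MS and 0.968 and 1.09 in the blebbistatin group over 10 genes. CTL 1 was at 0.539, MS 3 at 0.722 and blebbistatin 2 at 1.01 FPKM in this sum, and Ptprc, Cd8a and Itgax were listed at 0 in all 9 libraries. Lyz2, at 0.407 to 1.48 FPKM, and Cd79a, at 0.117 to 0.265 FPKM, were above 0 in every library. The 5 fibroblast markers summed to at most 0.567 FPKM and the 3 endothelial markers to at most 0.0361 FPKM.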

How the data were processed

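RNA was extracted with TRIzol and sequenced on an Illumina platform from 9 B16 libraries. For each library the authors deposited FPKM by gene. In CTL 1 the header gives the name of the sample in place of the unit, and FPKM was assumed. The submitters' processing notes name GRCm38 and mm10. The aligner, the counter and strandedness are not given in the sources used here. Low FPKM values shared no common step between libraries (at most 1.6% of ratios in any bin of 0.02 log2), so the depth is unknown. The FPKM columns summed to between 439939 and 484093.

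Values were used as deposited, as log2(FPKM + 1). Genes averaging 1 FPKM or more were fitted in 1 model of the 3 groups with limma 3.58.1 (R 4.3.3, eBayes with trend, two-sided, Benjamini-Hochberg adjustment, threshold 0.05). Exact permutation tests used Python 3.11.15 with scipy 1.17.1, with all 362880 orders for the correlations, and plots matplotlib 3.10.9. The scripts were tested on simulated data. The genes named are the 10 genes, the wider list with its largest and smallest differences in a subgroup, marker and amino acid stress lists, and the 5 genes most alike among those averaging 5 FPKM or more. The genes and lists were chosen with earlier results of these data known. Single values of a few listed genes are not reported here. H2-T10, H2-K2 and H2-L were not analysed here, and Hm13 was read under its symbol H13 in the files. Alternatives were a pseudocount of 0.1, no minimum or a minimum of 5 FPKM, median-of-ratios factors (0.937 to 1.073), quantile normalization, a fit without trend, a fit of the compared groups alone, the replicate number as a block, removal of the GC trend (loess, span 0.5), and each library left out.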

Additional observations from a re-analysis of the deposited data

How the results depend on the processing

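The number of class I genes called was 0 in each comparison under every alternative run, including 3 libraries (CTL 1, MS 3 and blebbistatin 2) left out together, an alternative chosen after seeing the data. Of 180 counts of calls, 178 were unchanged within 1.5 times. The other 2 were 1 gene called over all genes tested in place of 0, in MS against CTL and in the blebbistatin group against MS, without MS 2 (Gm49527 in both). Replicate numbers showed no clear pairing of the samples. The r of same-numbered deviations ran from -0.78 to 0.84, and that of different-numbered deviations from -0.88 to 0.92. Such values cannot exclude a weaker pairing. With the replicate number as a block 0 genes were called. Directions of differences this small were not stable.

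With 1 library of a compared group left out, 95 of 126 log2 fold changes kept their direction and 31 turned. In MS against CTL the lowest and highest were -0.0202 and 0.38 for Cd274, -0.23 and 0.34 for H2-K1, -0.0399 and 0.24 for B2m, -0.27 and 0.17 for H2-D1, -0.36 and 0.0623 for Tapbp, -0.37 and -0.0327 for Tap1, and -0.27 and 0.0429 for Tap2. In the blebbistatin group against MS they were -0.42 and 0.34 for H2-K1, -0.22 and 0.28 for B2m, -0.17 and 0.40 for H2-D1, -0.12 and 0.34 for Tapbp, 0.29 and 0.59 for Tap1, 0.0609 and 0.51 for Tap2, and -0.44 and -0.0422 for Cd274. In the blebbistatin group against CTL they were -0.26 and 0.0668 for Cd274, -0.36 and 0.39 for H2-K1, -0.14 and 0.36 for B2m, -0.23 and 0.33 for H2-D1, -0.27 and 0.19 for Tapbp, 0.0665 and 0.42 for Tap1, and -0.0835 and 0.37 for Tap2. Without blebbistatin 3, Tap1 in the blebbistatin group against MS had the only unadjusted p under 0.05 of the tested class I genes under any alternative, at 0.0447 (limma, adjusted p = 0.45). Differences in FPKM of the low genes ranged from -0.094 to 0.0196 for Psmb8 and from -0.0271 to 0.00767 for Nlrc5 in the blebbistatin group against CTL, and from -0.0919 to 0.0308 for Psmb9 and from -0.00723 to 0.0276 for Nlrc5 in MS against CTL.

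Under the other alternatives 13 log2 fold changes turned in direction, all small. Removal of the GC trend, alone or together with the replicate block, changed these values. MS against CTL turned to -0.12 for B2m and 0.0161 for H2-D1, the blebbistatin group against MS to -0.0041 for Tapbp, and the blebbistatin group against CTL to 0.0447 for Cd274. Quantile normalization gave 0.0505 for H2-K1 and -0.01275 for B2m in the blebbistatin group against MS and 0.0279 for Cd274 in the blebbistatin group against CTL. Median-of-ratios factors gave 0.02655 for H2-K1 in the blebbistatin group against MS and 0.0058 for Tapbp in the blebbistatin group against CTL. Without the 3 libraries B2m was at -0.0966 in the blebbistatin group against MS, and in the blebbistatin group against CTL H2-K1 was at -0.0753, B2m at -0.03385 and Psmb8 at 0.0087 FPKM, while in MS against CTL Psmb9 differed by 0.0262 and Nlrc5 by -0.00276 FPKM. The cause was not tested.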

Other observations

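Beyond the classical chains, H2-T22 was close to H2-D1 in level, at 20.95 to 48.55 FPKM, but 35.8% of the 50-base stretches of its longest transcript occur in other genes, most often H2-T10. H2-Q2, H2-Q6, H2-Q7, H2-Q10, H2-T3 and H2-M2 were listed at 0 in all 9 libraries. Of the class II genes, H2-DMb1, a chain of a chaperone of class II peptide loading, was at 10.3 to 20.9 FPKM. H2-DMa was at 0.565 to 1.38 FPKM, and H2-Aa, H2-Ab1, H2-Eb1 and Cd74 were each at most 0.584 FPKM. The class II transactivator Ciita was at most 0.0133 FPKM.

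Among the checkpoint relatives, Cd276, which encodes B7-H3, differed by 0.54 ± 0.18 (standard error) on the log2 scale in the blebbistatin group against MS, with every blebbistatin library above every MS library (limma, unadjusted p = 0.0155, adjusted p = 0.897). Of the 50 tested genes of the wider list it alone had an unadjusted p under 0.05 in this comparison. The count in the wider list was 0 without MS 1 or without blebbistatin 2, 2 without MS 3, 4 without MS 2 and 5 without blebbistatin 3. It was 4 of 64 with no minimum on FPKM. The count over all 10109 genes tested moved too, from 126 in the main fit to 34 without MS 1, 84 without MS 3 and 598 without MS 2. With no minimum it was 382 of 16483 genes. Pvr, a ligand of TIGIT and DNAM-1, also had non-overlapping groups in that comparison and against CTL, with log2 fold changes of 0.11 and 0.09 and a standard error of 0.11.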
